A study of Zea mays with 12 samples.

Results

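Seeds of the maize mutant zmmsh7-2, which the labels class as an MSH7 knockout made by CRISPR, were compared with wild-type seeds at 7 days after pollination (DAP). The comparison was described over nuclear gene models, identified by the prefix Zm00001d. It took 6 of the 12 RNA-seq libraries of the series, 3 of wild type (written AA in the labels) and 3 of the mutant (written aa), each matched to its column by a name read with upper and lower case kept apart. Of the 46430 identifiers in the count table of this stage, 44146 were nuclear gene models. The 6 other libraries came from the same genotypes at 14 DAP. They gave values in libraries not used here and entered a fit of all 12 libraries. The labels name no strain, generation, ear or number of mutant lines. Nor do they say whether a library pooled seeds or whether replicates came from separate plants, and p-values can therefore speak only of the spread among these libraries, which may be technical.

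MSH7 is a MutS homolog found in plants. Proteins of this family recognise base mismatches in DNA, a first step of mismatch repair, in which the newly made strand is cut back and filled in again. A maize seed of this age holds young endosperm, a tissue that nourishes the embryo and that later passes from cell division into starch and protein storage. The seed also holds the embryo and the maternal layers around both. In whole seeds, fewer cells of a type and less RNA per cell cannot be told apart.

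The reference gene table used here held 0 of the 44146 nuclear identifiers. The deposited table does not pair them with names either. MSH7 itself, marker genes of seed tissues and every list of storage, hormone or DNA repair genes were therefore not analysed here, and identifiers are given with no role. No gene, protein or promoter sequence could be tied to an identifier.

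The libraries held between 17502108 and 20865544 counts, of which at least 99.9% fell on nuclear gene models. Replicates stood close together. Among the 14369 tested nuclear genes with a mean of at least 10 CPM (counts of a gene scaled to the size of its library), the median absolute difference between 2 libraries of 1 genotype lay between 0.059 and 0.0713 on the log2 scale in the 6 pairs. Between a mutant and a wild-type library it lay between 0.312 and 0.317 in the 9 pairs. At most 0.0557% of these genes differed by more than 1.5-fold between replicates, against 23.7% to 24.2% between genotypes. The 6 libraries thus fell into their labelled groups with a spread within each group far below the gap between them.

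Most nuclear genes differed between the genotypes, and most of these differences were small. With edgeR's quasi-likelihood test at a Benjamini-Hochberg adjusted p below 0.05, 8532 of 23968 nuclear genes tested were higher in the mutant, 8535 were lower and 6901 were not called. Over all features tested, 35.5% were called higher and 35.6% lower, together 71.1%, so that a call at this threshold was the common state of a gene and not a mark of a few. The median called gene differed 1.44-fold, and 9478 of the called genes, 55.5%, differed by less than 1.5-fold. The quartiles of the log2 fold change over tested genes were −0.40 and 0.37, around a median of 0.01. Scaled by library totals alone, 9528 genes rose and 7651 fell.

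The tail of large falls was longer than the tail of large rises. Of the genes called, 1490 were higher by more than 2-fold, a class that held 6.25% of all features tested, and 2041 were lower by more than 2-fold, a class that held 8.62%. Beyond 4-fold, 240 were higher (1.01% of all features tested) and 535 lower (2.25%). Beyond 8-fold, 63 were higher (0.266%) and 158 lower (0.66%). The 1st percentile of the log2 fold change was −2.71 and the 99th was 2.00. A test against a minimum fold of 1.5, which asks whether a difference is larger than that fold and not merely different from none, called 2048 nuclear genes higher and 2816 lower, against 8.54% and 11.8% of all features tested. Scaled by library totals alone, falls still outnumbered rises, by 1852 to 1661 beyond 2-fold and by 2542 to 2399 in the test against a minimum fold. Without a filter on low counts, 202 were higher and 311 lower beyond 8-fold, since scarce genes then entered the test.

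**Figure D1:**
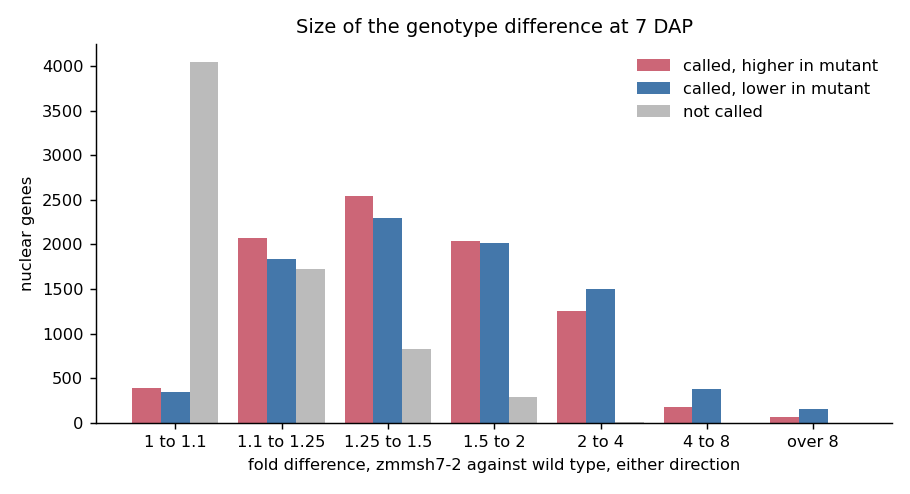
Number of nuclear genes (y axis) in each range of fold difference between zmmsh7-2 and wild type at 7 DAP (x axis), split into genes called higher in the mutant, called lower and not called. Of the genes that differed by less than 1.1-fold 4046 were not called, while rises and falls are close in number up to 2-fold and falls outnumber rises beyond it.

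The libraries themselves show how little the genotypes overlapped. In 17370 of the 23968 genes tested the 3 mutant values all lay above, or all lay below, the 3 wild-type values. Beside this stands the 71.1% of features called by the edgeR test, which is a different measure. The share of genes without overlap in the absence of a genotype difference was not computed. Of the genes called, 16253 did not overlap and 814 did. Of the 3531 genes called beyond 2-fold, 3482 did not overlap. Called genes were picked by their difference in these same libraries, which by itself favours values that do not overlap.

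The counts carried by these genes shifted accordingly, as a description of genes that the test itself picked. Genes called lower by more than 2-fold took 7.83% ± 0.07 of all counts in wild type against 2.97% ± 0.01 in mutant libraries (SD, n = 3 each). Genes called higher by more than 2-fold took 1.18% ± 0.02 in wild type and 3.09% ± 0.01 in the mutant. The 6901 genes not called held 15.2% ± 0.04 and 15.8% ± 0.01. Most counts lay in genes that changed less than 2-fold: those higher took 33.7% ± 0.02 of the total in wild type against 44.5% ± 0.03 in mutant libraries, and those lower took 41.9% ± 0.06 and 33.4% ± 0.03.

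The number of nuclear genes detected was close in the 2 genotypes. Nuclear genes with at least 1 count numbered 28841, 28945 and 28976 per wild-type library, against 28988, 28675 and 28959 per mutant library. The ranges overlapped, and the lowest value belonged to the smallest library. At the depth of that library the expected numbers were 28669 ± 31 in wild type and 28722 ± 41 in the mutant (SD over 3 libraries each; p = 0.2 in a two-sided exact permutation test, where 0.1 is the smallest p that 3 against 3 libraries allow). Over all 6 libraries 11499 nuclear genes had 0 counts.

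Abundant transcripts were spread differently. Genes at 1000 CPM or more numbered 33, 33 and 31 in wild type and 38, 38 and 40 in the mutant, so that every mutant library had more (two-sided exact permutation test p = 0.1). Genes at 100 CPM or more numbered 2385, 2380 and 2394 in wild type and 2185, 2197 and 2185 in the mutant, so that every mutant library had fewer (two-sided exact permutation test p = 0.1). The mutant mean minus the wild-type mean at 100 CPM was −197 genes, and −61.7 genes when libraries were scaled by their totals alone. The 100 most abundant nuclear genes of each library held 11.97% ± 0.12 of nuclear counts in wild type against 12.87% ± 0.06 in mutant libraries (SD over 3 libraries each; p = 0.1 in a two-sided exact permutation test). Under either scaling fewer genes reached 100 CPM, and more reached 1000 CPM, in the mutant.

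Among the 10 most abundant nuclear genes, with means between 2801 and 8294 CPM, 7 were called higher and 3 lower. Their log2 fold changes ran from −0.49 to 0.97, and none reached 2-fold. The smallest of these differences was 0.06 on the log2 scale, which passed the test at this depth.

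Both the share of genes called and the size of their differences varied with abundance. Of the 1791 tested genes with a mean under 1 CPM, 43.9% were called, and 36.3% were called beyond 2-fold. At 10 to 100 CPM, with 12081 genes, 77.6% were called and 8.19% beyond 2-fold. At 100 to 1000 CPM, with 2253 genes, the shares were 87.5% and 7.23%. The median absolute log2 fold change fell from 0.725 under 1 CPM to 0.261 at 100 to 1000 CPM, while the median standard error (SE) fell more steeply, from 0.395 to 0.0316. Genes under 1 CPM had a median coefficient of variation between replicates of 27.7% in wild type and 27.8% in the mutant, against 2.33% and 1.96% at 100 to 1000 CPM. The smallest difference called was 1.64-fold under 1 CPM and 1.03-fold at 100 to 1000 CPM, so that the calls of scarce genes cover only large differences. Genes under 1 CPM also lie near the count filter, which a gene can pass through 1 genotype alone. That by itself favours large differences in this class, so its 36.3% and its median of 0.725 are descriptions only.

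The excess of falls beyond 2-fold came mainly from genes of 10 CPM or more. At 10 to 100 CPM, 330 genes were higher and 659 lower beyond 2-fold, and at 100 to 1000 CPM 40 were higher and 123 lower. Under 1 CPM the numbers were 306 and 345, and at 1 to 10 CPM 814 and 911. Scaled by library totals alone, the numbers were 387 and 581 at 10 to 100 CPM and 43 and 110 at 100 to 1000 CPM. The balance in the scarcer classes turned under that scaling, with 328 higher and 327 lower under 1 CPM and 901 higher and 833 lower at 1 to 10 CPM. Beyond 8-fold, 38 of the genes at 10 to 100 CPM were lower and 2 were higher, while at 100 to 1000 CPM 3 were lower and 0 were higher.

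**Figure D2:**
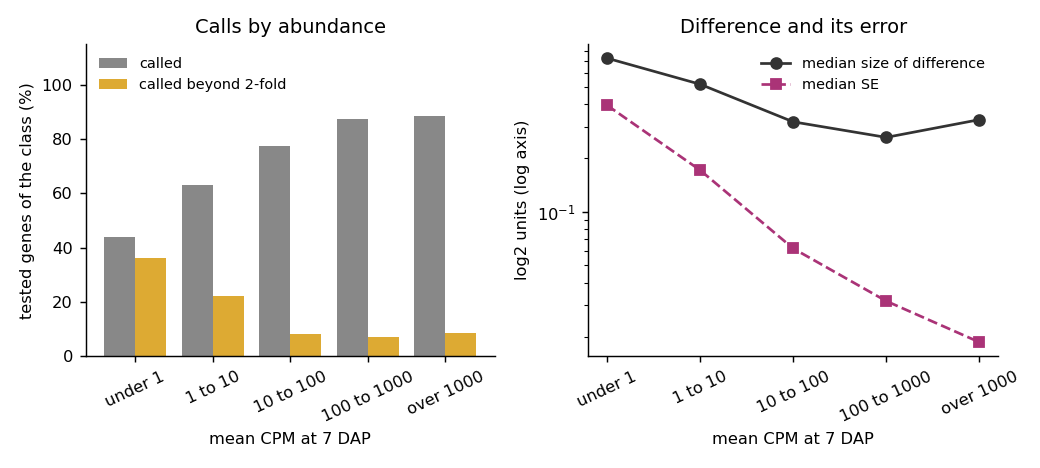
Left, percent of tested nuclear genes in each class of mean abundance (x axis, CPM at 7 DAP) that were called, and called beyond 2-fold. Right, the median absolute log2 fold change and the median SE of the same classes, on a log axis. Calls rise from 43.9% under 1 CPM to 87.5% at 100 to 1000 CPM, while calls beyond 2-fold fall from 36.3% to 7.23%. The class under 1 CPM lies near the count filter, which by itself favours large differences there.

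For single identifiers, the 2 largest rises and the 2 largest falls were taken among 10977 called nuclear genes that averaged 10 CPM or more and did not overlap between genotypes. Zm00001d018065 was at 15.0, 16.5 and 14.8 CPM in wild type and at 143, 147 and 145 CPM in the mutant. It stood 9.40-fold higher in the mutant (edgeR log2 fold change 3.23, SE 0.05, adjusted p = 1.82e-88). Older seeds, at 14 DAP, showed the same order, with 74.4, 75.7 and 74.8 CPM in the mutant libraries and 9.28, 10.7 and 11.7 CPM in those of wild type (edgeR log2 fold change 2.83, SE 0.06).

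Zm00001d031875 was at 4.46, 5.52 and 4.50 CPM in wild type and at 42.9, 42.9 and 40.5 CPM in the mutant at 7 DAP (edgeR log2 fold change 3.12, SE 0.08, adjusted p = 1.78e-61). No mutant library came near the wild-type range. At 14 DAP the order was the opposite, with 107, 113 and 99.9 CPM in wild type and 74.8, 71.7 and 71.0 CPM in the mutant (edgeR log2 fold change −0.56, SE 0.04). This identifier was the more abundant at 14 DAP in both genotypes. The mutant at 7 DAP lay between the wild type at 7 DAP and the mutant at 14 DAP.

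Zm00001d027832 was at 30.3, 30.7 and 30.7 CPM in wild type and at 0.336, 0.392 and 0.393 CPM in the mutant at 7 DAP. It was 81.7-fold lower in the mutant (95% counting interval 53.8 to 131), a ratio that rests on 22 mutant counts against 1832 wild-type counts (edgeR log2 fold change −6.33, SE 0.15, adjusted p = 2.81e-66). At 14 DAP the mutant libraries reached 5.60, 5.67 and 6.92 CPM and the wild-type libraries stood at 9.84, 11.8 and 11.5 CPM (edgeR log2 fold change −0.86, SE 0.12). The transcript was thus close to absent in mutant seeds at 7 DAP and present in them at 14 DAP.

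Zm00001d032253 was at 27.1, 25.3 and 23.7 CPM in wild type and at 0.336, 0.953 and 0.836 CPM in the mutant at 7 DAP. It was 35.8-fold lower (95% counting interval 26.3 to 50.1, from 1519 and 41 counts; edgeR log2 fold change −5.18, SE 0.15, adjusted p = 7.13e-59). At 14 DAP it was scarce in both genotypes, with 38 wild-type and 6 mutant counts in all, and was under the count filter. The folds, intervals and p-values of these 4 identifiers describe extremes of this comparison, which were also picked for not overlapping between genotypes.

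**Figure D3:**
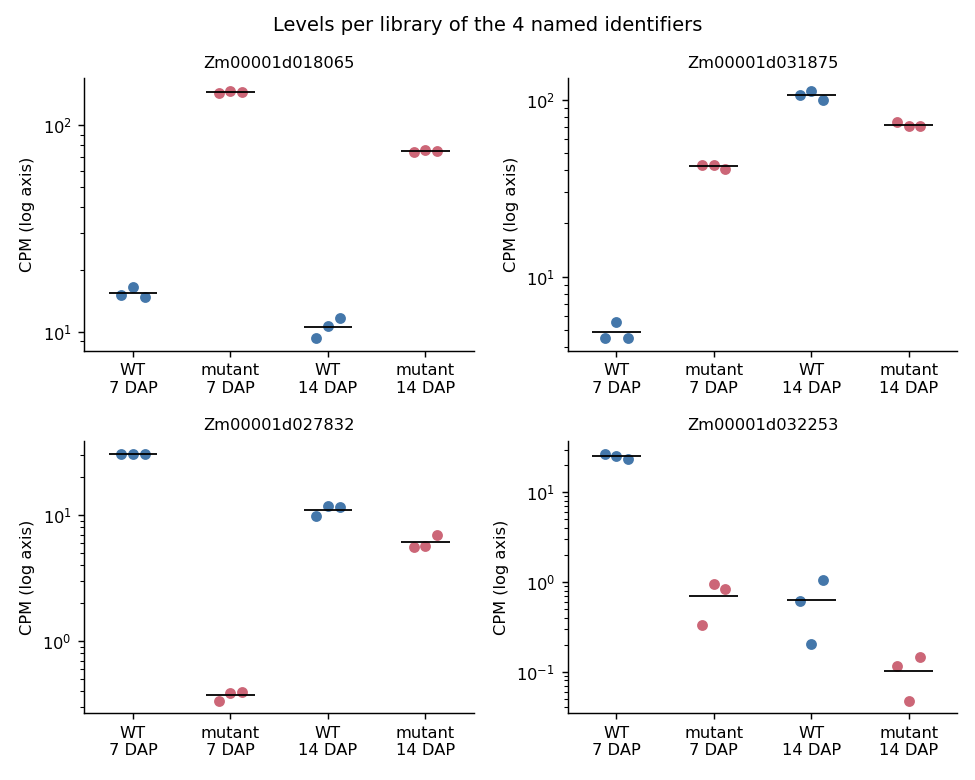
CPM per library (y axis, log scale, a separate range in each panel) of the 4 identifiers in wild type (WT, blue) and zmmsh7-2 (mutant, red) at 7 and 14 DAP, with black lines at the means of 3 libraries. The genotypes are far apart at 7 DAP in each panel, while Zm00001d031875 changes its order at 14 DAP and Zm00001d027832 narrows from 81.7-fold to 1.82-fold.

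Few genes had 0 counts in 1 genotype and clear counts in the other, and 0 counts need not mean that a transcript was absent. With at least 20 counts over the 3 libraries of the other genotype, 12 nuclear genes had 0 counts in wild type, and 10 had none in mutant libraries, of the 32647 with any count. All of these 22 genes were seen in each of the 3 libraries of the genotype that had them. The 32647 include genes too scarce to reach 20 counts, and the number that could show this pattern was not computed. A limit of 10 counts gave 50 and 42 genes, and a limit of 50 gave 3 and 2. The same pattern, 0 counts against at least 20, returned at 14 DAP in 2 of the 12 genes and in 0 of the 10.

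A broader class passed the filter through 1 genotype. At least 10 counts in each library of wild type and fewer than 10 in each mutant library were found in 272 tested genes, and the reverse in 190. For such genes passing the filter depends on the difference itself, so their number is a description and no support for more falls than rises.

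Whether the differences at 7 DAP were found again was looked at in the 6 libraries of 14 DAP, which share no library with this comparison. Of the 1293 genes higher beyond 2-fold at 7 DAP that were also tested at 14 DAP, 846 were called higher there, 65.4%, against 31.7% of all features tested at that stage. Of the 1755 genes lower beyond 2-fold, 1376 were called lower again, 78.4%, against 32.1%. Opposite calls were made for 93 and 79 genes.

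Among genes tested at both stages, the share found again grew with the size of the difference at 7 DAP. Among genes lower by less than 1.5-fold at 7 DAP, 49.0% were called lower at 14 DAP and 15.1% were called higher. Among those lower by 4 to 8-fold the shares were 87.1% and 3.06%, and among those lower by more than 8-fold 86.1% and 2.78%. Among rises, 55.8% of those below 1.5-fold were called higher again, 72.7% at 4 to 8-fold and 76.2% beyond 8-fold. Of the 63 genes more than 8-fold higher, 42 were tested at 14 DAP, and 28 of these (66.7%) were beyond 2-fold in the same direction. Of the 158 more than 8-fold lower, 108 were tested there, and 78 of these (72.2%) were. Over all features tested at 14 DAP the shares were 4.47% and 9.01%. The effects were smaller at 14 DAP in each range: genes more than 8-fold lower at 7 DAP had a median log2 fold change of −3.59 there and of −1.85 at 14 DAP, and genes more than 8-fold higher had 3.39 and 1.66. The genes were sorted by their 7 DAP values, which by itself favours smaller values at the other stage.

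Part of the genes with the largest differences at 7 DAP were too scarce to test at 14 DAP. Of the 158 genes lower by more than 8-fold, 50 were under the count filter at 14 DAP, and of the 63 higher by more than 8-fold, 21 were. In the fit of all 12 libraries, which tests the difference between the genotype effects of the stages, 22.8% of all features were called with a higher effect at 14 DAP and 24% with a lower one. Of the 158 genes, 103 were called with a weaker fall or a rise at 14 DAP and 3 with a stronger fall. Of the 63 genes, 37 were called with a weaker rise or a fall and 0 with a stronger rise. Both sets were picked by their 7 DAP values, which this fit uses again, and that favours a weaker effect at 14 DAP. Each stage has its own table of counts, so stage cannot be told apart from any batch that differs between tables.

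**Figure D4:**
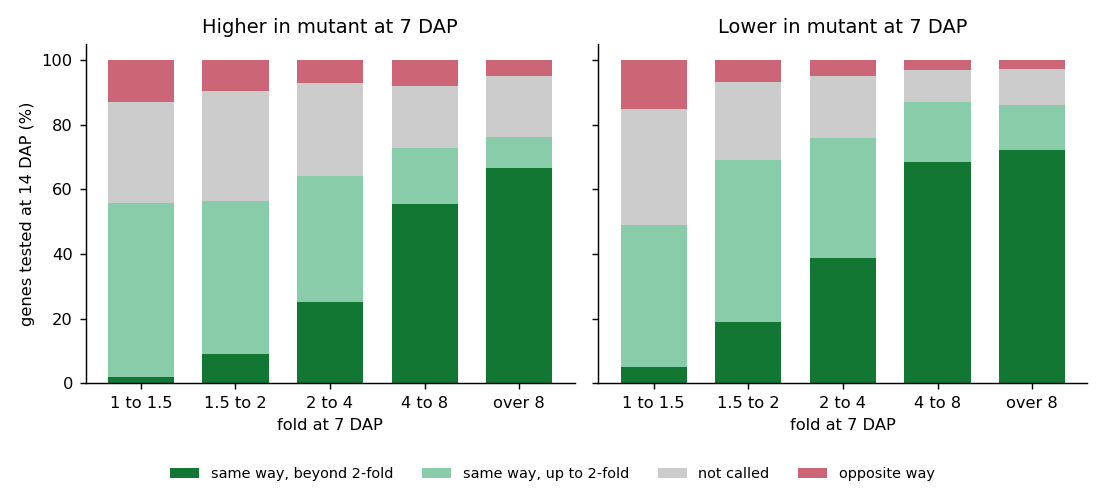
Outcome at 14 DAP (percent of genes tested there, y axis) of nuclear genes called at 7 DAP, by fold at 7 DAP (x axis), for genes higher (left) and lower (right) in the mutant. The share called the same way beyond 2-fold rises from 1.81% to 66.7% on the left and from 4.99% to 72.2% on the right, while opposite calls shrink.

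Neighbours were compared in the order of the deposited table, which was checked against the genome through microRNA precursors only. The 153 microRNA precursors that the reference table names lie on 10 chromosomes and fell into 11 stretches of 1 chromosome each along the table. The precursors of chromosome 10 were split, with 1 of them standing apart from the other 17. Within these stretches all 142 consecutive pairs stood in the order of their positions in that table, whose assembly is Zm-B73-REFERENCE-NAM-5.0. This assembly differs from the build of the counts, so no coordinates are given. Where the nuclear genes stand in the genome was not known, and whether they follow the same order was not tested. Neighbours were taken as consecutive tested nuclear genes in the order of the table.

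Falls beyond 2-fold came side by side more often than their overall share, an excess that was not tested. After a gene lower by more than 2-fold, the next tested gene was also lower by more than 2-fold in 290 of 2041 cases, 14.2%, against 8.52% of all tested nuclear genes. The share was 11.5% at 2 steps, 10.1% at 3, 9.06% at 4, 9.21% at 5 and 10% at 10 steps, and 8.48% at 20 steps. For rises the share was 8.46% at 1 step, 126 of 1490 cases, against 6.22% of all tested nuclear genes. It was 6.91% at 2 steps, 8.32% at 3 and 6.31% at 4. A fall was followed by a rise in 4.51% of cases, below those 6.22%.

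Among genes of at least 10 CPM the next gene was also lower in 8.66% of cases against 5.46% of all such genes, 1.59 times as often, and for rises 1.57 times as often, from 15 pairs. In abundant genes too, the share of neighbours changed in the same direction was thus above that of all such genes, an excess that was not tested. Of the 290 pairs of falls, 189 stood on adjacent rows of the table, with nothing listed between them. In 217 of the 290 pairs both genes were tested at 14 DAP, and in 141 of these both were called lower again, 65.0%. Of 91 such pairs of rises, 43 were both called higher again, 47.3%. Beside these stand the shares of single genes found again, 78.4% of falls and 65.4% of rises beyond 2-fold, and whether pairs were found again more often than single genes imply was not tested.

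Runs of such genes were short. Among falls there were 202 runs of 2 genes, 29 of 3 and 9 of 4 or more, the longest with 6 genes. Among rises there were 97 runs of 2, 10 of 3 and 3 of 4. How far neighbouring gene models overlap, are copies of each other or share reads was not tested, and the sources used here do not say whether reads were counted by strand.

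Over longer distances, both directions were found along the whole table, at uneven density. In 119 consecutive windows of 200 tested nuclear genes, each held between 5 and 35 genes lower by more than 2-fold, with a median of 17, and between 2 and 22 higher, with a median of 12. No window lacked either. Falls outnumbered rises in 84 windows and rises outnumbered falls in 27. The median log2 fold change of a window lay between −0.22 and 0.20. The windows richest in falls held 35, 30 and 30 of them, beside 9, 9 and 14 rises. Whether this unevenness exceeds an even spread was not tested.

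**Figure D5:**
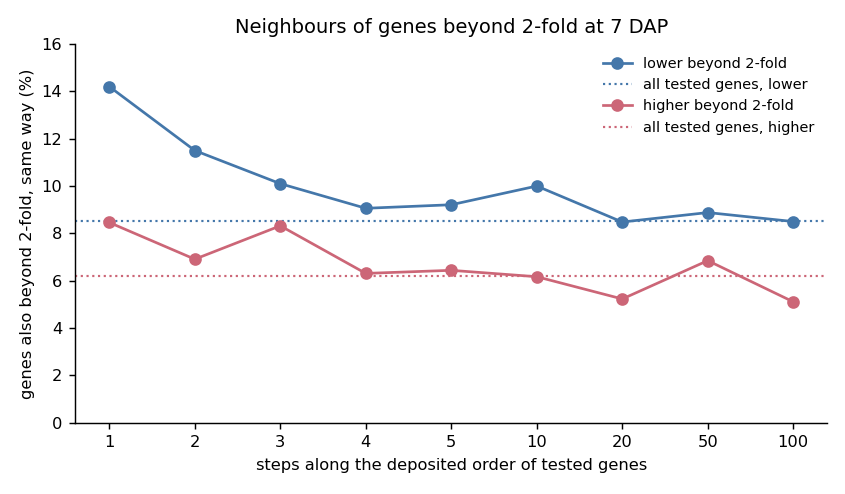
Percent of nuclear genes that were also beyond 2-fold in the same direction (y axis) at a given number of steps along the deposited order (x axis) from a gene lower (blue) or higher (red) by more than 2-fold in the mutant at 7 DAP, with dotted lines at the shares of all tested genes. The share for falls starts at 14.2%, stands at 9.06% at 4 steps and at 10% at 10 steps, and reaches the 8.52% of all tested genes at 20 steps. The share for rises starts at 8.46%.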

How the data were processed

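Total RNA from developing seeds was sequenced, per the labels' protocols with the NEBNext Ultra II kit. The authors deposited 1 table per stage, which holds raw counts of reads for each gene. The submitters' processing notes name Trimmomatic 0.39, HISAT2 2.2.1, featureCounts 1.6.4, StringTie 1.3.6, DESeq2 and the build B73 RefGen_v4. The sources used here give neither the annotation release nor the strand setting nor how multiply aligned reads were handled. Fits used R 4.3.3 with edgeR 4.0.16 on all identifiers of a table, with TMM factors, the default filter by group, robust dispersions and Benjamini-Hochberg adjustment over all features tested. CPM are scaled by TMM factors. An SE is the size of the log2 fold change over the root of its F statistic. Alternatives were RLE factors, library totals, other filters, DESeq2 1.42.0, a replicate block, all 12 libraries, nuclear genes only and leaving out each replicate. Counting intervals are exact binomial and cover counting error only. Replicates of a genotype differed beyond sampling noise (chi-square per degree of freedom 1.70 to 2.17). The fits were also tried on simulated data in which only a small share of genes differed. Most genes differed here, so that trial cannot judge the scaling or the share called.

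Named identifiers are the 2 largest rises and falls among called, non-overlapping nuclear genes of at least 10 CPM. The planned lists of named genes could not be matched to identifiers. The comparison and lists were chosen with earlier results of these data known.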

Additional observations from a re-analysis of the deposited data

Results flagged for a closer look

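The genotype effect of each of the 4 named identifiers differed between the stages in the test of the difference itself (edgeR, fit of all 12 libraries, effect at 14 DAP minus effect at 7 DAP on the log2 scale). The difference was 5.47 for Zm00001d027832 (SE 0.23), whose fall in the mutant was smaller at 14 DAP. It was −3.68 for Zm00001d031875 (SE 0.09), which was higher in the mutant at 7 DAP and lower at 14 DAP. For Zm00001d032253 it was 2.61 (SE 0.89, edgeR adjusted p = 0.0113), from 38 wild-type and 6 mutant counts at 14 DAP, and for Zm00001d018065 it was −0.40 (SE 0.09, edgeR adjusted p = 6.53e-05). The identifiers were picked as the extremes of 7 DAP, which favours a smaller effect at 14 DAP.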

How the results depend on the processing

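The log2 fold changes of the 4 named identifiers kept their direction and their call under each alternative run. Counts of called genes that moved by more than 1.5 times did so with the filter on low counts, the tool or the minimum fold. Without a filter, 481 genes were higher beyond 4-fold, and 202 higher and 311 lower beyond 8-fold. With the stricter filter of at least 5 CPM in 3 libraries, 693 were higher and 1189 lower beyond 2-fold, 83 and 254 beyond 4-fold, 17 and 72 beyond 8-fold, and 1353 were higher in the test against a minimum fold. With DESeq2, 399 were higher beyond 4-fold, 168 higher and 255 lower beyond 8-fold, and 1167 higher in the test against a minimum fold. A minimum fold of 2 called 660 higher and 1248 lower. The share of falls followed by a fall was 12.7% without a filter (7.37% of all tested genes there), 10.2% with the stricter filter (6.68%) and 12.6% among genes of at least 1 CPM (7.65%), the last chosen after seeing the data, and that of rises followed by a rise was 5.77% with the stricter filter (3.89%). Under the stricter filter 76.7% of rises and 84.3% of falls beyond 2-fold that were also tested at 14 DAP were called the same way there. The filters act by changing which genes are tested. The DESeq2 run tested 27710 nuclear genes, against 23968 in the main fit, so tool and filter cannot be told apart there. For the remaining changes the cause was not tested. With library totals only, the mutant mean of genes at 10 CPM or more was 131 above that of wild type, where the TMM scaling gave a difference of −60.7, and the same difference moved from −197 to −61.7 at 100 CPM and from 6.33 to 10.7 at 1000 CPM. Leaving out 1 replicate gave 8049 to 8290 genes called higher and 8179 to 8335 called lower. Replicate numbers are shared by the genotypes, but deviations of same-numbered libraries correlated at most at 0.0448, so the numbers were not taken as pairs, and with a replicate block 8519 genes were higher and 8537 lower. Depth limits the scarce genes, where only differences of at least 1.64-fold were called under 1 CPM.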
